A study of Arabidopsis thaliana with 24 samples.

Results

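The transcripts described here are those whose level was higher in the older of 2 leaf harvests of Arabidopsis thaliana, whatever solution the plants had been watered with. A probe set, the group of array probes that reads 1 transcript, was a member if its mean was higher at 5 weeks after sowing (5W) than at 4 weeks (4W) by at least 1 on the log2(signal + 16) scale in each of 4 waterings, and if its lowest 5W array exceeded its highest 4W array. Both thresholds were met by 69 of 22746 probe sets (0.303%). Of these, 5 were left out by name (SUFE2, AT4G14090, STZ, HIS1-3 and AT2G47880), which left 64 members. Among the members 29 had 1 gene, 4 had several genes, and 31 are unnamed here and are called by their probe set. The 5W minus 4W difference therefore chose the members, and it is given below as a description without a test. The opposite rule, lower at 5W by as much in each watering without overlap, was met by 133 probe sets.

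The study fed glutathione to plants and measured transcripts on 24 Affymetrix arrays, in 12 groups of 2 replicates. All plants were wild type of the ecotype Columbia-0, grown 3 to a pot under the same light and temperature, and no mutant or transgene was used. Once a week, from week 1 to week 5, each pot took up 25 ml from below: glutathione in its oxidized form (GSSG, 1 mM) or its reduced form (GSH, 2 mM), 3 mM NH4NO3 (the labels' protocol writes its formula with the atoms in another order) or water. Harvests at 3 weeks (3W) took all aerial parts, apex included, and at 4W and 5W only blades of fully expanded leaves, the second and the third from the top. Plant age, time under feeding and the harvest itself differ together between 4W and 5W, so leaf age cannot be told apart from them. The labels do not say whether the 2 replicates of a group came from separate pots, so the p-values rest on a spread among these samples that could be technical. In bulk tissue, fewer cells of a type and less RNA per cell cannot be told apart.

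A leaf blade passes from growth to photosynthetic export and then to senescence, a controlled breakdown in which chloroplasts are dismantled and nitrogen, sulfur and lipid breakdown products leave for younger organs. Vacuolar proteases, chloroplast-degrading proteins, amino acid transporters and lipid droplet proteins act in that breakdown, and glucosyltransferases attach sugar to hormones and phenolic compounds. Glutathione is a thiol tripeptide, a redox buffer and a form of transported sulfur, and ammonium nitrate supplies nitrogen without sulfur.

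The leaf label was checked with markers. RCA, the activase of the carbon-fixing enzyme Rubisco, had a lowest, median and highest signal of 10448, 14707 and 16648 at 3W, 31109, 35925 and 51110.2 at 4W and 24908, 30606 and 35469 at 5W. SBPASE, the other leaf marker measured, had 3742 to 5100 at 3W, 8119 to 15575 at 4W and 4704 to 6224 at 5W. Its 3W and 5W ranges overlapped. CLV3, a shoot apex gene, reached at most 38.6 on any array, and EXPA7, a root hair gene, at most 63.3. They were the only measured markers of apex (1 of 6) and root (1 of 3), and none of the 6 flower, 4 floral transition or 3 seed storage markers had a probe set of 1 gene here. CLV3 ran only from 4.45 to 38.6 at 3W, where the apex was included. Its low signal in blades therefore cannot show that apex tissue was absent. The ratio of 3' to 5' probe signal, a sign of RNA integrity, differed without overlap between the leaf harvests for AFFX-Athal-GAPDH. It overlapped for the other Arabidopsis controls given here. For AFFX-Athal-GAPDH it was 2.47 to 3.52 on the 8 arrays of 5W, against 3.71 to 5.27 on the 8 arrays of 4W. For the actin control it was 2.65 to 3.11 at 5W against 3.08 to 4.81 at 4W, and for AFFX-r2-At-GAPDH 1.022 to 1.202 at 5W against 1.066 to 1.437 at 4W, both with overlap. For AFFX-Athal-Ubq it was 2.106 to 3.902 at 5W, a range that holds the 2.812 to 3.805 of 4W. By actin alone the 4 replicate 2 arrays of 4W stood apart, at 4.29 to 4.81 against 2.65 to 3.80 on the other 20 arrays. Leaving those 4 arrays out gave 170 members in place of 64, with 54 of the 64 among them, an alternative added after seeing the data. With fewer 4W arrays to exceed, the no-overlap condition is easier to meet. The part of RNA integrity in the 5W minus 4W differences was not tested.

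The members' 5W minus 4W difference averaged over the 4 waterings ran from 1.09 to 4.16, with a median of 1.66. By watering, its median over the members was 1.90 with GSSG, 1.47 with GSH, 1.40 with NH4NO3 and 1.76 with water, beside -0.03, 0.07, -0.01 and -0.01 over all probe sets in the same order. The largest of a member's 4 differences was with GSSG in 32 members, with GSH in 7, with NH4NO3 in 7 and with water in 18. The smallest was with GSSG in 3, with GSH in 29, with NH4NO3 in 24 and with water in 8. These counts over all probe sets are not given here. Of all 22746 probe sets, 979 had a difference of at least 1 with GSSG, 868 with GSH, 646 with NH4NO3 and 917 with water. Since every member needed a difference of at least 1 in each watering, the rule itself limits how far the waterings could differ.

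**Figure D1:**
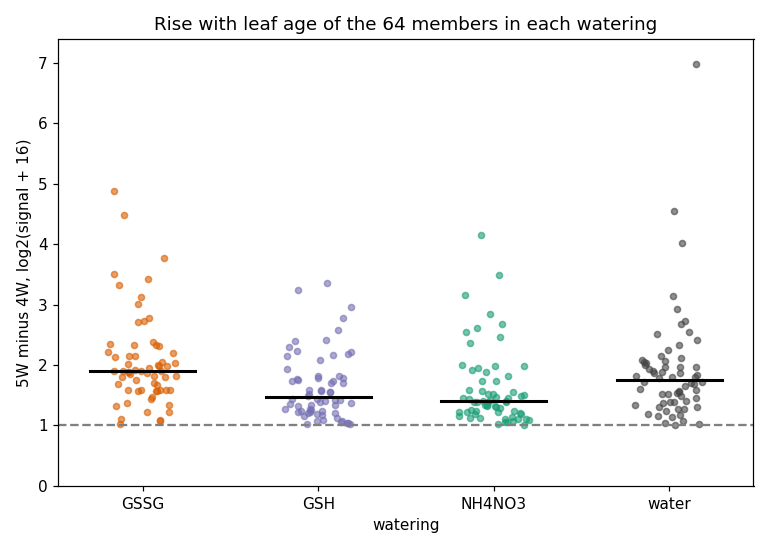
Difference of 5W minus 4W on the log2(signal + 16) scale for each of the 64 members in each watering; points are members, the black bar is their median and the dashed line is the threshold of 1. The medians are 1.90 with GSSG, 1.47 with GSH, 1.40 with NH4NO3 and 1.76 with water.

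**Figure D2:**
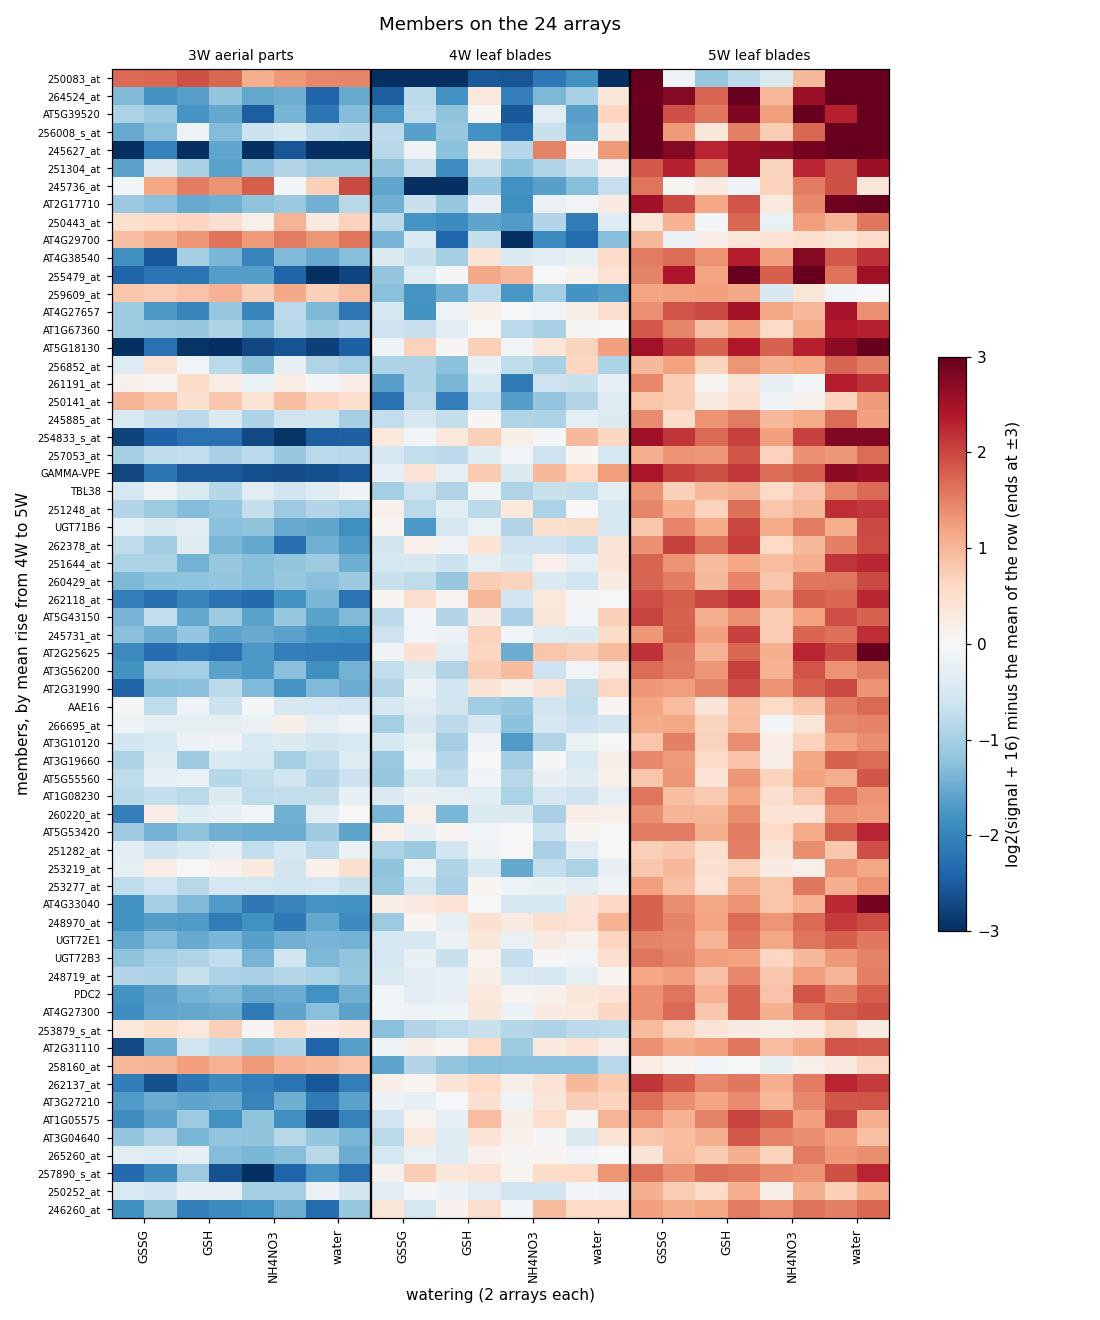
Heat map of the 64 members on each of the 24 arrays, grouped by harvest and watering, with colour for the log2 signal minus the member's mean over the arrays, with the scale ending at ±3. The 5W arrays are above the 4W arrays in each row, as the rule requires, and the 3W arrays vary between members.

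Members of vacuolar and chloroplast breakdown included GAMMA-VPE (AT4G32940) and AT2G25625. GAMMA-VPE, a vacuolar processing enzyme that matures other vacuolar proteins, had a lowest, median and highest signal of 1108, 1229.8 and 1611 at 3W, 5571, 10724 and 17634 at 4W and 23775, 31700.2 and 48161 at 5W. AT2G25625, known as CHLOROPLAST VESICULATION and able to destabilize chloroplasts, had 1.76, 4.23 and 10.3 at 3W, 15.2, 111 and 153 at 4W and 164, 300.7 and 690.4 at 5W. In both genes the 3 harvests did not overlap, with 3W lowest and 5W highest. The 4W minus 3W step and the 5W minus 4W step involve different tissue, since 3W includes the apex.

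Of the UDP-glucosyltransferases, which attach glucose to small molecules, 3 were members. UGT71B6, which glucosylates abscisic acid, had a lowest, median and highest signal of 91.8, 134 and 230.4 at 5W against 2.65, 32.3 and 73.4 at 4W, and was dim at 3W, at 1.16 to 34.3. UGT72E1, which glucosylates coniferyl aldehyde, a lignin precursor, had 1454, 2088 and 2504 at 5W against 484.8, 702 and 1118 at 4W. UGT72B3, a member of the same family, had 362, 581 and 742 at 5W against 134, 208 and 333 at 4W. Their mean differences, 1.73, 1.46 and 1.44, lay near the median of all members.

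In lipid metabolism, AT1G67360 encodes a lipid droplet protein of the rubber elongation factor family and AAE16 an acyl activating enzyme. AT1G67360 had 1711, 2934 and 6039 (lowest, median, highest) at 5W against 575, 818 and 1161 at 4W. AAE16 had 298, 438 and 772 at 5W against 93.9, 148 and 234 at 4W. At 3W AT1G67360 had 450.8 to 629, overlapping the range at 4W.

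Among the transporters, AT3G56200, of an amino acid transporter family, had 901, 1283 and 1838 at 5W against 223, 359.8 and 846 at 4W. AT1G08230, which transports gamma-aminobutyrate, had 301, 449 and 679 at 5W against 99.1, 157 and 174 at 4W. Their mean differences were 1.65 and 1.55.

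Cell wall members were TBL38 and AT2G31110, of the trichome birefringence-like family that acetylates wall polysaccharides, AT2G31990, of the exostosin family of glycosyltransferases, and AT3G04640, a glycine-rich protein. TBL38 had 493, 679.8 and 1076 at 5W against 149.9, 193 and 287 at 4W. AT2G31110 had 269, 359.9 and 541 at 5W against 56.7, 156 and 214 at 4W. AT2G31990 had 257 to 440.1 at 5W against 45.9 to 160.4 at 4W, with no array of 3W above 50.5. The smallest mean difference of the named members was that of AT3G04640, 1.25, with 582, 730.4 and 1184 at 5W against 176, 331 and 432 at 4W.

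Redox and metabolic members were AT4G33040, a glutaredoxin of the CC type, a family of small thiol proteins, AT4G38540, a flavin-dependent monooxygenase, PDC2, a pyruvate decarboxylase, and AT4G29700, of a phosphodiesterase family. AT4G33040 had 576, 839.9 and 2411 at 5W against 214, 376 and 489 at 4W. PDC2 had 6922, 11263 and 14159 at 5W against 3009, 4177 and 5085 at 4W. AT4G29700 was the named exception at 3W, with 375, 504 and 626 there, 2.46, 51.5 and 136 at 4W and 168, 254 and 396 at 5W, so that all its 3W arrays exceeded 4W and overlapped 5W. AT4G38540 had 703 to 2056 at 5W against 139 to 443 at 4W.

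Members with roles in transcription or signalling were AT5G53420, a CCT-domain protein, AT5G55560, a protein kinase, and AT4G27300, a receptor-like kinase of the S-locus lectin family. AT5G53420 had 1916, 3668 and 6142 at 5W against 801, 1243 and 1407 at 4W. AT5G55560 had 204, 351 and 587 at 5W against 59.0, 107 and 169 at 4W. AT4G27300 had 2092 to 4488 at 5W against 1041 to 1837 at 4W.

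The other 9 named members, for which no role is given here, include AT5G39520, with the largest mean difference of the named members, 3.46. It had 293, 757 and 2298 at 5W against 6.04, 50.5 and 186 at 4W. Mean differences of the others were 2.59 for AT2G17710, 1.93 for AT4G27657, 1.89 for AT5G18130, 1.68 for AT5G43150, 1.58 for AT3G10120, 1.55 for AT3G19660, 1.28 for AT3G27210 and 1.26 for AT1G05575. AT5G18130 had 68.7 to 154 at 3W, 722 to 1888 at 4W and 2711 to 6403 at 5W, and no array of 1 harvest overlapped another harvest.

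**Figure D3:**
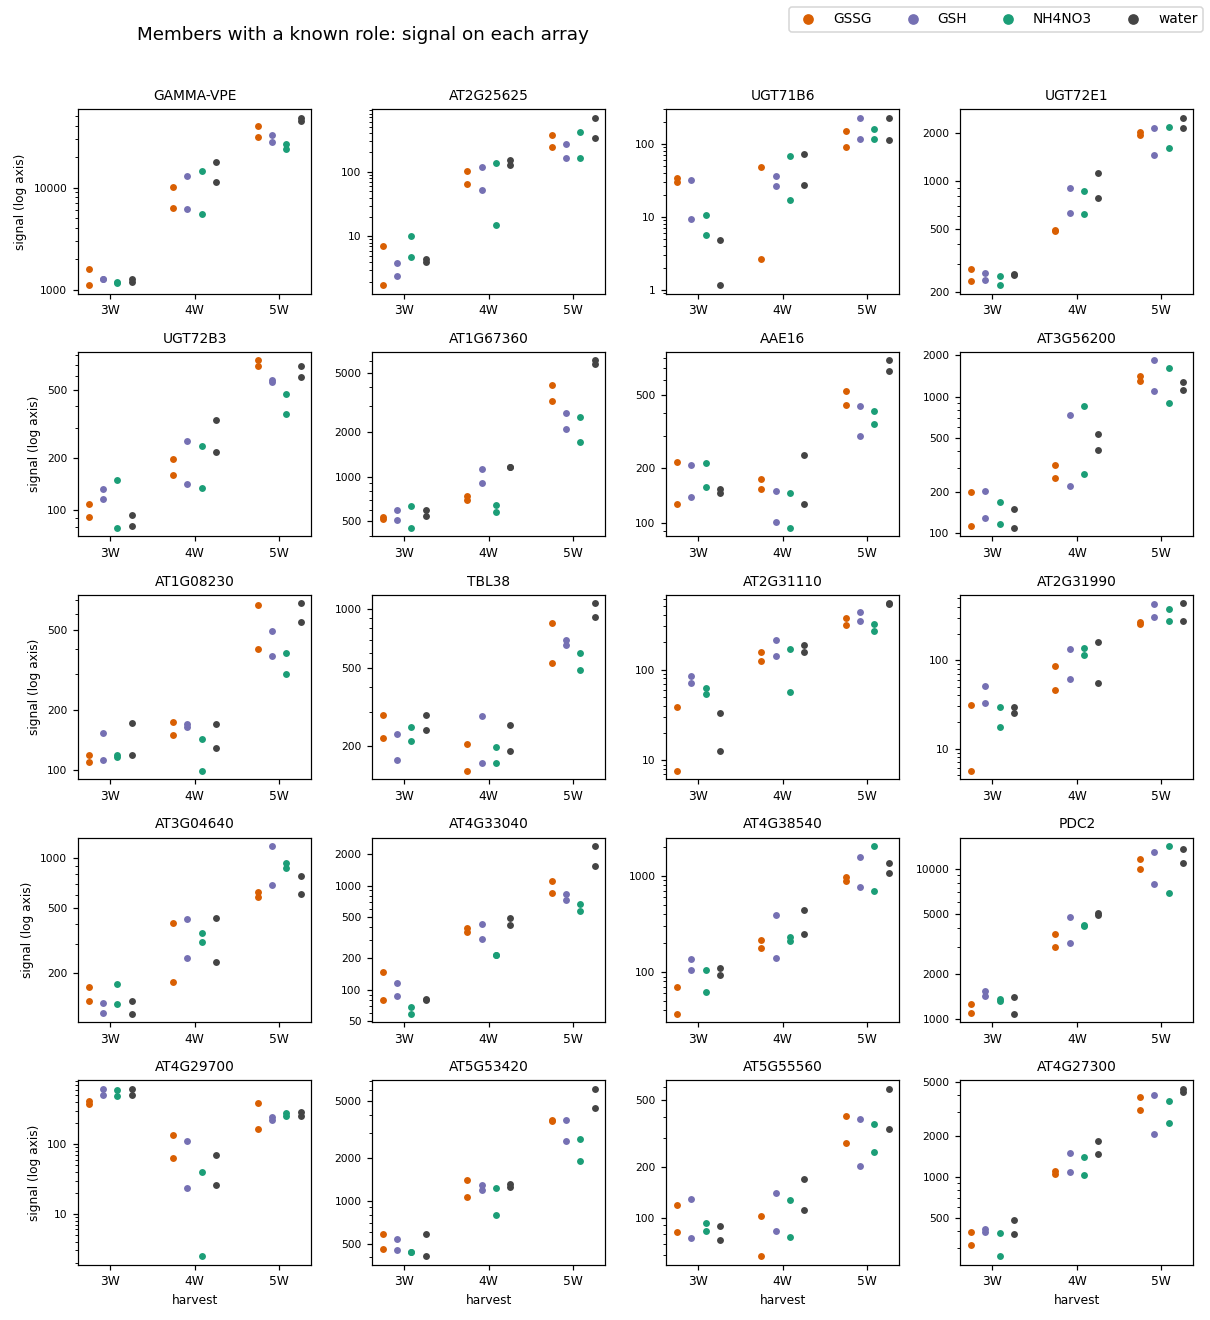
Signal on each array (log axis) of the 20 members with a known role, by harvest and watering; each point is 1 array. All 5W points lie above all 4W points in each panel, and AT4G29700 is the panel in which all 3W points lie above all 4W points.

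The members ranked 1 and 2 by mean difference were unnamed, as was the member ranked last, 246260_at, at 1.09. Probe set 250083_at had 102, 354 and 5509 at 5W against 3.22, 21.9 and 56.8 at 4W, a mean difference of 4.16. Probe set 264524_at had 658, 2399 and 5414 at 5W against 44.2, 136 and 411 at 4W, a mean difference of 3.81. Low 4W signals make such differences depend on the added 16. Of the 64 members, 59 were above the 40th percentile of mean signal.

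Values near the thresholds show how the list ends. Just inside, the smallest of the 4 differences was 1.01 for 266695_at, 1.01 for AT1G05575 and 1.02 for 262137_at. Just outside it was 0.997 for FMO, 0.99 for AT4G39270 and 0.99 for 249928_at. The gap between the lowest 5W and the highest 4W array was 0.02 for AT3G19660, 0.02 for 261191_at and 0.03 for 256852_at inside, and -0.01 for AT1G80130, -0.01 for 262482_at and -0.02 for 250666_at outside.

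The array titles carry a further number whose meaning is not stated, and only the number 4 is shared by the leaf harvests, by 5W replicate 1 and 4W replicate 2. Between those arrays the median of the members' mean differences was 1.31, and between the others, 5W replicate 2 and 4W replicate 1, it was 1.92. The difference was smaller between the arrays of number 4 in 58 of 64 members, and at least 1 in each watering in 21. It was above 0 in all 64, as the no-overlap rule requires. Replicate 2 was higher than replicate 1 in 55 members at 4W (median 0.43) and in 51 at 5W (median 0.18). By construction these replicate offsets make up the gap between the 2 sets of arrays. The same counts over all probe sets are not given here. Whether the number or RNA integrity plays a part was not tested.

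**Figure D4:**
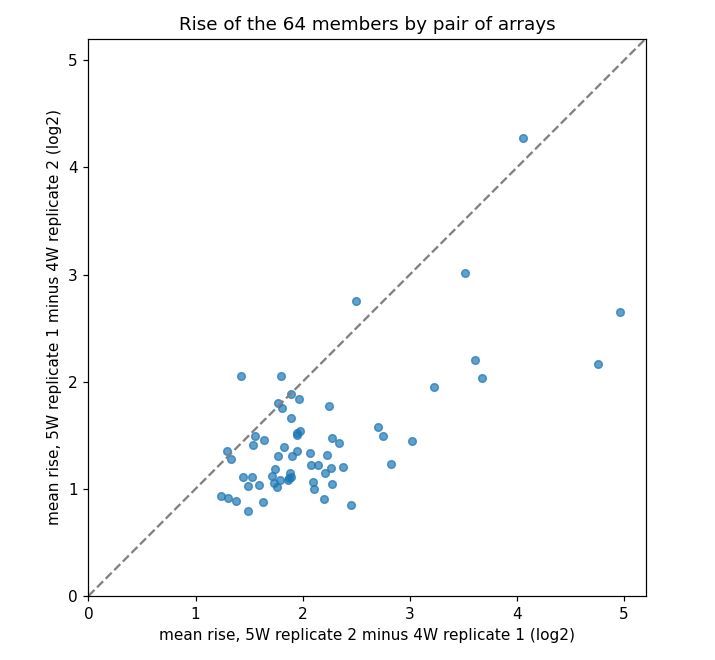
Mean 5W minus 4W difference (log2) of each member over the 4 waterings, between 5W replicate 1 and 4W replicate 2 (vertical) and between 5W replicate 2 and 4W replicate 1 (horizontal); the dashed line marks equal values. Of 64 points, 58 lie below the line, and all are above 0 on both axes, as the rule requires.

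The 3W arrays did not enter the rule, although the 4W and 5W values they are set against did. All 8 lay below the lowest 4W array in 24 members, where 14.8% of all probe sets did so, and above the highest 4W array in 10, where 18.3% did so. In the other 30 they overlapped the 4W range. All 8 lay below the lowest 5W array in 53 members (16.8% of all probe sets), and above the highest 5W array only in 258160_at (20.1%). Of the named members, 13 of 29 had 3W below 4W, GAMMA-VPE, PDC2, UGT72E1, AT4G33040 and AT5G53420 among them, and AT4G29700 had 3W above 4W.

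Feeding was then compared with water, a contrast the rule did not use although it used the same leaf arrays. With limma on all probe sets, a change with an adjusted p under 0.05 (Benjamini-Hochberg over 22746 probe sets) was called. At 5W members were called mostly lower in fed plants: with NH4NO3, 11 of 64 were lower (0.637% of all probe sets) and 0 higher (1.58%). With GSH, 6 were lower (0.47%) and 1 was higher (1.02%). With GSSG limma called 0 (0.22% of all probe sets in either direction), while 9 members had an unadjusted p under 0.05 (14.1%, beside 6.94% of all probe sets). Without GSSG replicate 1 of 5W limma called 1 member with GSSG. The 3 comparisons share the 2 water arrays of 5W, so they are not independent of each other. With a replicate block, described in the last section, limma called more members with each solution.

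The median change of the members at 5W was -0.36 with GSSG, -0.48 with GSH and -0.67 with NH4NO3, beside -0.03, -0.02 and -0.05 over all probe sets in the same order. The level was lower than with water in 59, 53 and 59 of the 64 members, in that order, beside 54.2%, 51.7% and 55.4% of all probe sets. In 26 members all 6 fed arrays of 5W lay below both water arrays, as in 9.01% of all probe sets, and in 0 members above both, as in 6.69%. GAMMA-VPE, AAE16, TBL38 and AT1G67360 were among the 26.

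AT1G67360, the lipid droplet protein, had signals of 2095 and 2667 with GSH and 1711 and 2497 with NH4NO3 at 5W, against 6039 and 5722 with water. With GSSG it had 4108 and 3201. All fed arrays were below both water arrays. The change was -1.31 ± 0.19 (SE) with GSH (limma, adjusted p = 0.000904) and -1.50 ± 0.19 with NH4NO3 (adjusted p = 0.000154), and each call was kept under all 11 alternatives. With GSSG it was -0.69 ± 0.19 (adjusted p = 0.256), not called.

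AT4G33040, the glutaredoxin, had 726 and 825 with GSH and 576 and 662 with NH4NO3 at 5W, against 1541 and 2411 with water, so fed and water arrays did not overlap. The change was -1.30 ± 0.26 with GSH (limma, adjusted p = 0.0124) and -1.62 ± 0.26 with NH4NO3 (adjusted p = 0.00117). Both calls were lost without water replicate 2 of 5W, where the changes were -0.98 and -1.30, and the GSH call was also lost without GSH replicate 1 (-1.21) and when only the arrays compared were fitted (-1.30).

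AT5G53420, the CCT-domain protein, had 1916 and 2735 with NH4NO3 at 5W, against 4489 and 6142 with water, a change of -1.19 ± 0.24 (limma, adjusted p = 0.0081). AT2G17710, whose role is not given here, had 766 and 1714 with NH4NO3, against 4848 and 5435 with water, a change of -2.15 ± 0.44 (adjusted p = 0.00988). Neither gene's arrays overlapped. Without NH4NO3 replicate 1 of 5W the changes were -0.94 and -1.57, and without water replicate 2 they were -0.97 and -2.06, and in these 4 cases the call was lost. The AT5G53420 call was also lost when only the arrays compared were fitted (-1.19).

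Members without 1 named gene made up the other calls, and of these 256008_s_at and 254833_s_at have several genes. Probe set 250083_at had 102 and 134 with GSH and 173 and 486 with NH4NO3, against 5054 and 5509 with water, changes of -5.31 ± 0.71 (limma, adjusted p = 0.000331) and -4.10 ± 0.71 (adjusted p = 0.00248). With GSSG its replicates stood at 2467 and 222. Probe sets 261191_at, 256008_s_at and 251644_at were called lower with both solutions, and 266695_at, 254833_s_at and 262137_at with NH4NO3. The 1 member called higher, with GSH, was 259609_at, with 1591 and 1494 against 629.6 and 678 with water, a change of 1.22 ± 0.27 (adjusted p = 0.0244). That call was lost without any 1 of the 4 arrays compared, where the change was 1.17 to 1.27.

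The number of calls moved with single arrays. With NH4NO3 the 11 became 3 without NH4NO3 replicate 1, 4 without water replicate 2 and 7 without water replicate 1 of 5W. With GSH the 7 became 2 without GSH replicate 1, 2 without water replicate 2 and 3 without water replicate 1. Of the 18 called changes, 14 were lost without at least 1 array and 4 were kept under every alternative.

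**Figure D5:**
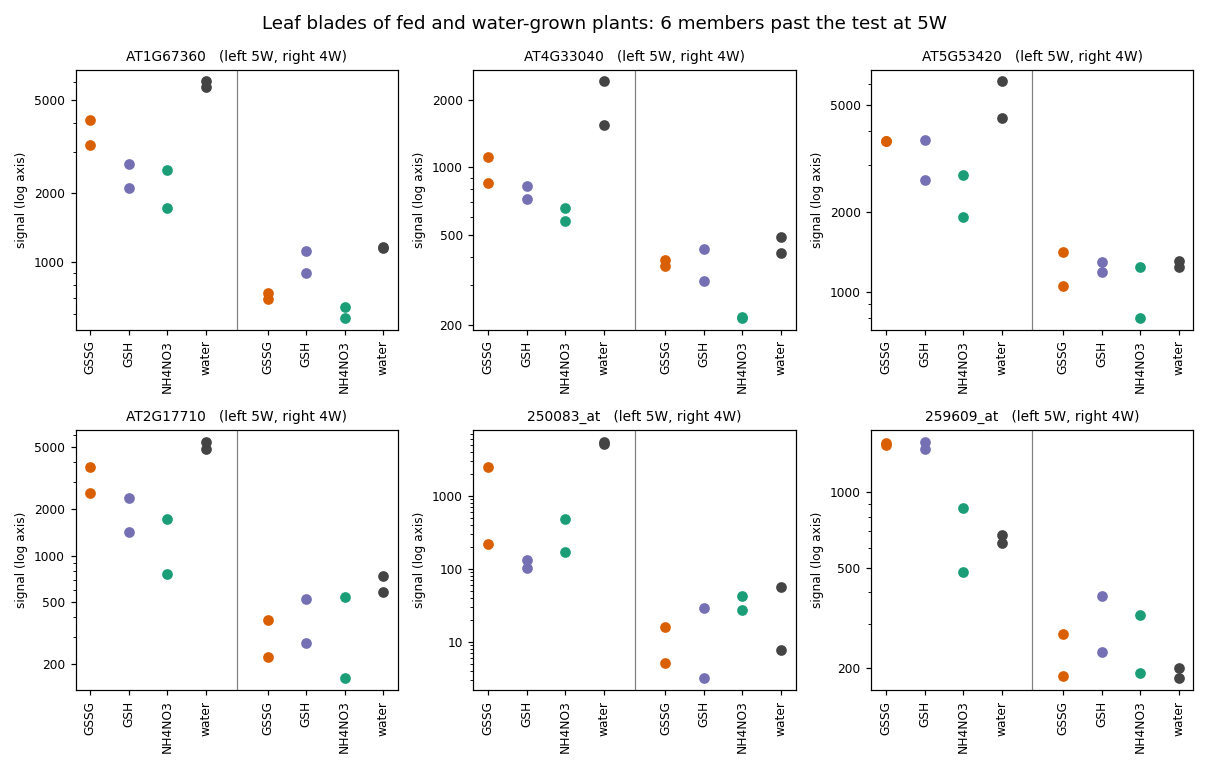
Signal on each array (log axis) of 6 members called against water at 5W, the 4 named ones and the unnamed ones with the smallest p in each direction, by watering, with 5W left and 4W right of the grey line; each point is 1 array. At 5W the GSH and NH4NO3 points lie below both water points in the panels other than 259609_at, where both GSH points lie above them.

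At 4W limma called 0 members with GSSG (0.0484% of all probe sets), 0 with GSH (0.0044%) and 0 with NH4NO3 (0.0132%), and 13, 2 and 11 members had an unadjusted p under 0.05 in that order. These are 20.3%, 3.12% and 17.2% of the members, beside 9.83%, 8.16% and 6.59% of all probe sets, so the GSH share was below that of all probe sets. With the replicate block limma did call members with GSSG at 4W. The median changes of the members at 4W were -0.59, -0.30 and -0.41, beside -0.03, -0.07 and -0.04 over all probe sets. All 6 fed arrays of 4W lay below both water arrays in 7 members (3.9% of all probe sets) and above both in 0 (2.64%). The 7 held AT1G67360, PDC2, AT2G17710, AT3G27210 and AT4G27657. At 3W limma called 0 with each solution (0.0% of all probe sets), with 1, 1 and 2 members at an unadjusted p under 0.05 (1.56%, 1.56% and 3.12%, beside 2.63%, 2.22% and 2.69% of all probe sets) and median changes of 0.02, 0.12 and 0.02, beside 0.02, 0.01 and 0.02 over all probe sets. That a change was called at 5W and not at 4W does not show that the harvests differ.

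That difference was tested as the change of the 5W minus 4W difference with feeding. Limma called 0 members for GSSG (0.00879% of all probe sets), 0 for GSH (0.154%) and 0 for NH4NO3 (0.171%), with 4, 6 and 7 at an unadjusted p under 0.05. These are 6.25%, 9.38% and 10.9% of the members, near the 6.65%, 8.43% and 7.5% of all probe sets. Of them, 1, 6 and 7 had a smaller difference with feeding than with water. The median change of the members was 0.21, -0.205 and -0.194, beside -0.001, 0.059 and -0.004 over all probe sets. It was below 0 in 22, 41 and 46 of the 64 members, beside 50.0%, 45.2% and 50.3% of all probe sets. For GSH, limma called 1 member with a pseudocount of 64, with the filter on dim probe sets and without water replicate 1 of 4W. With a replicate block, described in the last section, it called members for GSH and for NH4NO3. The smallest adjusted p was 0.0619 for GSH and 0.0883 for NH4NO3, both for 250083_at, and 0.605 for GSSG, for 259609_at. The rule limits this test, since no member could have a small difference in any watering. The 0 calls therefore do not show that feeding acts alike at both harvests.

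Genes of 12 lists, 239 in all, give the setting. Only 30 had a probe set of 1 gene, and 0 were members, since AT4G14090, STZ and HIS1-3 met the thresholds but were left out by name. DFR and LTI30 were also named to be left out, but did not meet the thresholds. Of the other 27, limma called 12 higher and 3 lower at 5W than at 4W, where it called 16.1% and 13.6% of all probe sets. The lists were chosen with earlier results of these data known, so their counts are a description only. The flavonoid and anthocyanin list had 5 of 5 higher, with a median of 0.97 beside -0.01 over all probe sets. Its DFR, which makes anthocyanin precursors, changed by 2.87 ± 0.49 (adjusted p = 0.000133) and UF3GT, an anthocyanin glycosyltransferase, by 2.36 ± 0.40 (adjusted p = 0.000136). These are means over the waterings, and in all 5 genes the 5W and 4W arrays overlapped. DFR ran from 6.01 to 3171 at 5W against 5.81 to 35.6 at 4W, and UF3GT from 5.76 to 1828 against 4.59 to 50.7.

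The abscisic acid, drought and cold list had 3 of 5 higher, the dehydrins LTI30 (1.43 ± 0.17) and COR47 (0.98 ± 0.21) and the chloroplast protein COR15A (0.73 ± 0.19). The senescence list had 0 of 5 called by limma, with values of 0.49 for SAG29, 0.20 for WRKY53, 0.14 for WRKY6, -0.14 for WRKY22 and 0.00 for SAG101, and adjusted p of 0.176 or more. NRT2.5, a nitrate transporter, changed by 1.39 ± 0.25, and the transcription factor genes AT1G25550 and AT1G68670 by -1.25 ± 0.13 and -0.61 ± 0.16. SBPASE, of the carbon fixation cycle, was lower at 5W, at 4704 to 6224 against 8119 to 15575 at 4W (limma, adjusted p = 1.96e-07).

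Among the 28 members placed in the reference, the closest neighbours were GAMMA-VPE and AT4G33040, 11 genes apart.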

How the data were processed

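The authors deposited 1 intensity per probe set and array; the values show a linear scale (the 2% trimmed means lay near 500 on every array, medians from 153.6 to 192.4), so no normalization was added. Per the submitters' processing notes, Affymetrix Expression Console was used, and its version and summary method were not given in the sources used here. Per the labels, 100 ng of RNA was labelled with biotin from the 3' end. Precision is limited by having 2 arrays per group.

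From the intensities log2(signal + 16) was computed, a scale on which changes of dim probe sets are understated. The 64 control probe sets were left out. All 24 arrays entered 1 limma 3.58.1 model in R 4.3.3, with a mean for each group, an intensity trend and 12 residual degrees of freedom, and p-values were adjusted by Benjamini-Hochberg over 22746 probe sets. The model was tested on simulated data for NH4NO3 against water at 5W. It recovered 61 of 100 changes of 1 and 93 of 100 changes of 2, with 7 false calls. The simulated noise was independent between arrays, and the changed probe sets were above the 40th percentile of mean level. Tables and plots used Python 3.11.15, pandas 2.3.3, numpy 2.4.6 and matplotlib 3.10.9.

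Probe sets were named by the platform annotation, with symbols from TAIR10.1: 13513 had 1 gene, 503 several and 8730 are unnamed here. The members and gene lists were chosen with earlier results of these data known. Named members are those with the largest differences, the called members, those next to a threshold, those set apart at 3W and those of known function. Alternatives changed the pseudocount, scaling, dim filter, thresholds, arrays in the fit, replicate block and each array in turn. Leaving out the 4 replicate 2 arrays of 4W was chosen after seeing the data. Promoter motifs were not analysed here.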

Additional observations from a re-analysis of the deposited data

How the results depend on the processing

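The 64 members became 119 with a minimum difference of 0.8, 17 with 1.5, 105 where arrays could overlap, 34 on the arrays of title number 4 alone and 170 without the 4 replicate 2 arrays of 4W, the last chosen after seeing the data. With fewer arrays the no-overlap condition is easier to meet. Leaving out 1 array gave 44 to 93. Pseudocounts of 1 and 64, quantile normalization, median centring and the dim filter gave 46 to 77. Leaving out 1 array of the groups compared gave 0 to 1 called members for GSSG, 2 to 5 for GSH and 3 to 9 for NH4NO3 at 5W, and 0 to 1 for the change of the 5W minus 4W difference with GSH. Without the 4 replicate 2 arrays of 4W, the called members at 5W were 2 for GSSG, 9 for GSH and 15 for NH4NO3. The change of the 5W minus 4W difference with GSH gave 1 with a pseudocount of 64 and 1 with the dim filter. The labels do not say what a replicate number marks, and with 2 numbers per group it was not taken as a pairing. Within a harvest, a replicate number went with the same title number in every watering. Deviations of same-numbered arrays correlated at 0.039 to 0.248 at 3W, 0.23 to 0.381 at 4W and 0.108 to 0.385 at 5W. With that replicate block the called members were 2 for GSSG, 12 for GSH and 21 for NH4NO3 at 5W, 4 for GSSG at 4W, and for the change of the 5W minus 4W difference 3 with GSH and 1 with NH4NO3. The cause was not tested. No called change of a member reversed under any alternative run. Calls of genes that are not members, 6682, ran from 5695 to 6892.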
